A study of Mus musculus with 36 samples.

Results

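A set of 10 genes of the smooth muscle contractile apparatus, out of 39017 genes in the count table, was followed in cultured mouse pancreatic fibroblasts. They were Acta2, Tagln, Cnn1, Myl9, Tpm1, Tpm2, Actg2, Myh11, Cald1 and Lmod1, each found once by its symbol. The fibroblasts were of the C57BL/6 strain and were profiled by RNA sequencing either after mono-culture or after 48 h of co-culture with 1 of 8 tumour lines, named clone E, clone H, clone K, clone M, clone N, clone T, clone V and KPC1. The labels call the lines tumour sub-clones and do not explain the name KPC1. Tumour cells carried GFP and were removed by flow sorting before lysis. Each of the 9 groups held 4 libraries, 36 in all, and the labels do not say whether these came from separate cultures, so the p-values measure only the spread between these libraries. No genotype, age or passage was given for the fibroblasts, and whether they came from 1 or several animals was not given either.

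In a smooth muscle cell, thin filaments of alpha or gamma actin slide along myosin when the regulatory light chain of myosin is phosphorylated. Tropomyosin, caldesmon and calponin sit on the thin filament and tune that sliding, transgelin binds and bundles actin, and leiomodin nucleates new filaments. Fibroblasts that take on part of this programme are called myofibroblasts, and alpha smooth muscle actin is the usual marker for them in pancreatic stroma and in healing wounds. Many of these genes are switched on by serum response factor (SRF), which binds a short element named the CArG box together with myocardin or the myocardin-related factors.

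A CArG box could be searched for in the 250 bases before the RefSeq start of 7 of the 10 genes (build GRCm38.p6), with 2 starts for Cald1; Tagln, Actg2 and Myh11 had no entry in the table. An exact CArG box stood in the window of 1 gene, Myl9, and 1.47% of all 32851 promoter windows of this length held one. With 1 letter of the central A/T stretch allowed to be another base, the count was 2 genes, Acta2 and Myl9, against 8.59% of all windows. The element reads alike on both strands. The 4 matches are shown because Acta2 and Myl9, the genes that hold them, moved differently in co-culture. Each is given 5′ to 3′ on the gene's strand with the match in capitals and 10 bases on each side.
Acta2, 84 to 75 bases before the start, chr19:34255438-34255467, minus strand: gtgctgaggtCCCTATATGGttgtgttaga
Acta2, 34 to 25 bases before the start, chr19:34255388-34255417, minus strand: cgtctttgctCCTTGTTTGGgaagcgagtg
Myl9, 161 to 152 bases before the start, chr2:156775293-156775322, plus strand: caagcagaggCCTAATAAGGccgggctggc
Myl9, 99 to 90 bases before the start, chr2:156775355-156775384, plus strand: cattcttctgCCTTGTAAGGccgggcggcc
Both Acta2 matches lie upstream of the RefSeq start but inside exon 1 of a longer transcript in GENCODE M21. The Myl9 matches lie outside the exons of that annotation. A match is a description of these letters and not a measured site, and the windows of Cnn1, Tpm1, Tpm2, Cald1 and Lmod1 held no match.

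The libraries held 12532122 to 21985538 counts, and levels are given as CPM (counts scaled to library size) after TMM scaling, whose factors ran from 0.957 to 1.07. Fibroblast markers were abundant in all groups, with the 9 genes of that list summing to between 10884 and 32040 CPM per library. The 10 epithelial markers summed to 1.29 to 1.87 CPM in mono-culture and to 18.3 to 797 CPM in the co-cultures. Keratins Krt18, Krt8 and Krt19 and the cadherin Cdh1 carried signal, while Epcam, Cldn4, Cldn7 and Esrp1 had at most 9 counts in a library. Endothelial markers summed to at most 6.33 CPM and immune markers to at most 16.1 CPM. Within the co-culture groups these markers ran against most members. Over the 32 co-culture libraries, as deviations from their group means on the log2 scale, r with the epithelial sum was -0.69 for Tagln, -0.62 for Myl9, -0.61 for Tpm2, -0.58 for Acta2, -0.57 for Cald1 and -0.51 for Actg2. It was -0.38 for Lmod1, -0.35 for Cnn1, -0.19 for Myh11 and -0.06 for Tpm1. In 5 of 8 co-cultures the library with the highest epithelial sum had the least Acta2 of its group. Mono-culture was low in both the epithelial sum and Acta2, but not in Myl9, Tpm2 or Lmod1. Libraries of a group share a line, so this is a description, and the part of remaining tumour RNA in the member values was not tested. In bulk libraries a change in the number of contractile cells and a change in RNA per cell cannot be told apart.

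Per unit of length, the members fell into an abundant set and a scarce set. In mono-culture the mean RPKM (reads per kilobase of gene, scaled to library size) was 224 for Tpm1, 187 for Cald1, 133 for Tpm2, 84.3 for Myl9, 84.0 for Acta2 and 24.2 for Tagln. On the same scale Lmod1 had 2.37 RPKM, Cnn1 0.714, Actg2 0.125 and Myh11 0.0527. Smooth muscle myosin heavy chain and gamma smooth muscle actin, which mark differentiated smooth muscle, were thus near the limit of detection, so the genes are described here by name and not as the profile of a smooth muscle cell. Of the 10, 9 passed the filter on low counts and were tested. Actg2 did not pass.

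**Figure D1:**
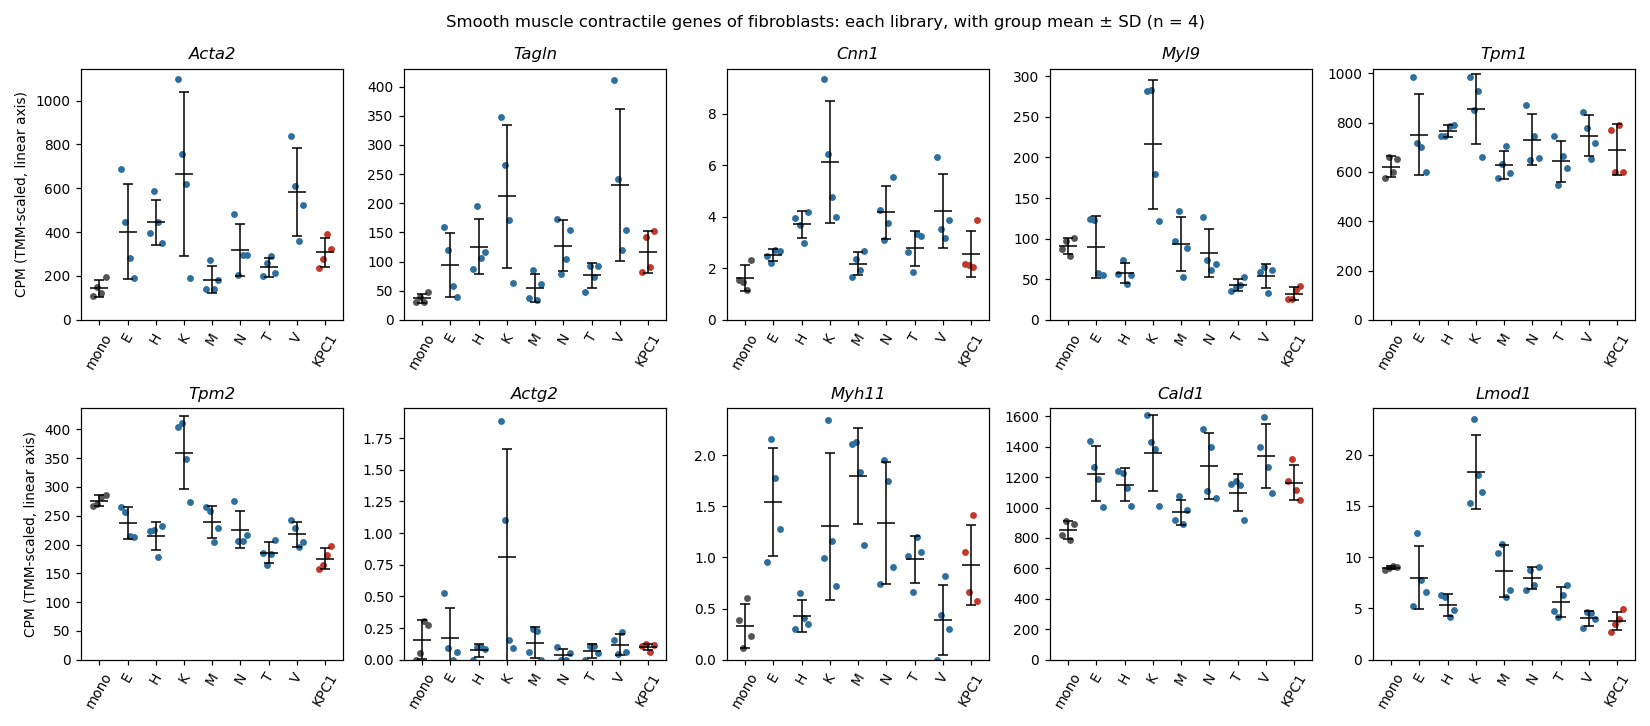
Level of each of the 10 genes in every library, in TMM-scaled CPM on a linear axis that starts at 0, by group (mono, mono-culture in grey; clones in blue; KPC1 in red); black marks are the mean and SD of 4 libraries. Acta2 and Tagln are lowest in mono-culture, while Myl9, Tpm2 and Lmod1 stand highest with clone K and lowest with KPC1.

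The first comparison asked how each co-culture differed from mono-culture. The 9 tested members did not move as a block. Acta2, Tagln, Myh11, Cnn1 and Cald1 were higher with most lines, Myl9, Tpm2 and Lmod1 were lower with some lines and higher with clone K, and Tpm1 was called with clone K alone. With clone K, 9 of 9 members were called, all higher, where 19.1% of all 14439 genes tested were called (10.4% higher and 8.69% lower). With clone M, 1 of 9 was called, Myh11, against 23% of all genes. With clone E the count was 4, all higher, against 32%, and with clone N it was 5, all higher, against 39.0% (19.7% higher). With clone H, 4 were higher and 2 lower, together 6 of 9 against 54.2% of all genes. Clone T gave 3 higher and 3 lower against 49.8%, clone V 4 higher and 3 lower against 58.3%, and KPC1 4 higher and 3 lower against 59.0%. With clones E, H, N, T and V and with KPC1 the share of members called was not far above that of all genes. The 8 comparisons share the mono-culture libraries, so their calls are not independent of each other.

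For the mean of the 7 clones, 6 members were called against 49.2% of all genes (24.3% higher). Acta2, Tagln, Cnn1, Myh11 and Cald1 were higher and Tpm2 was lower. The median log2 fold change of the members was 0.48, and that of all genes tested was 0.0058. Myl9, Tpm2 and Lmod1 were each called higher with at least 1 line and lower with at least 1 other. Such a split held for 5.35% of all genes tested.

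Separation of the libraries, with no test, overlapped with the calls in part. The 4 libraries of Myl9, Tpm2 and Lmod1 lay wholly below the 4 of mono-culture with clone H, where 25.3% of all genes did so, with clone T (24.9%), with clone V (26.4%) and with KPC1 (26.2%). Tpm2 was also wholly below with clone E (19.1%) and clone M (16.9%), where it was not called. Wholly above mono-culture were 6 of the 9 members called with clone K (14.2% of all genes), without Acta2, Tpm1 and Tpm2. The count was 5 with clone H (26.1%), 5 with clone N (20.2%) and 4 with clone V (25.8%). It was 3 with clone T (24%) and KPC1 (27.4%), 2 with clone E (18.1%), where the called Acta2 and Tagln overlapped mono-culture, and 1 with clone M (15.1%). With clone N 0 members lay wholly below, where 20.4% of all genes did, and with clone K 0, where 14.6% did.

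**Figure D2:**
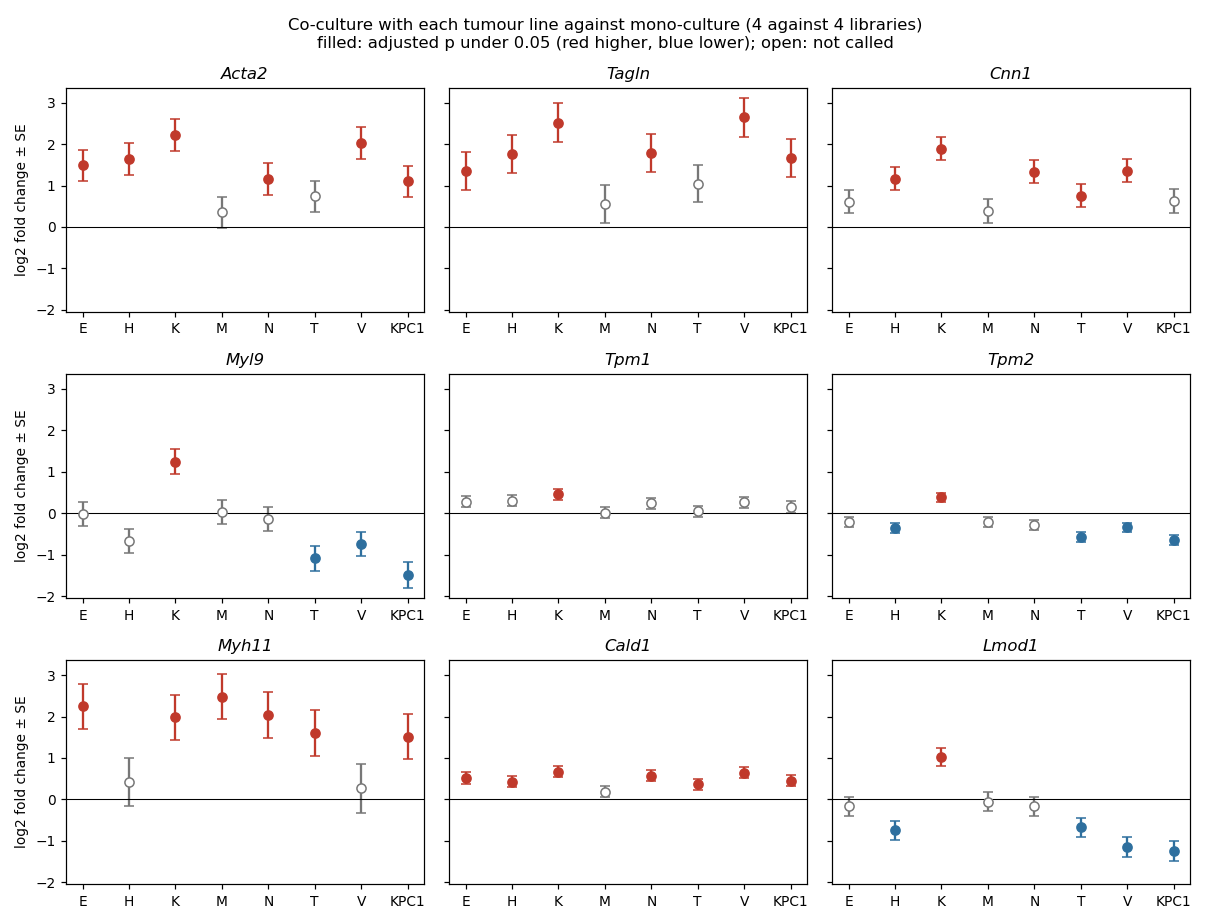
log2 fold change against mono-culture with its standard error for the 9 tested genes (panels) and the 8 tumour lines (x axis), 4 libraries against 4; filled points passed an edgeR adjusted p of 0.05, red higher and blue lower, and open points did not. Acta2 is called higher with 6 lines and lower with none, and Lmod1 is called higher with clone K and lower with 4 lines.

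Acta2 (ENSMUSG00000035783, chr19:34241090-34255590, minus strand) encodes alpha smooth muscle actin. It had 109, 148, 121 and 195 CPM in the 4 mono-culture libraries. With clone V it had 839, 609, 359 and 525 CPM, and with clone H 394, 588, 447 and 353 CPM. Each library of both clones was above each library of mono-culture. The log2 fold change was 2.02 with clone V (SE 0.38, edgeR adjusted p = 4.9e-05) and 1.64 with clone H (SE 0.38, adjusted p = 0.00061). With clone K the libraries had 1097, 755, 619 and 190 CPM. The last of these lay within the mono-culture range, and the log2 fold change was 2.21 (SE 0.39, adjusted p = 0.00011).

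Clone E gave 688, 446, 284 and 193 CPM of Acta2, of which 3 libraries exceeded mono-culture. Clone N gave 485, 204, 297 and 294 CPM and KPC1 gave 237, 278, 391 and 322 CPM, all above mono-culture. The log2 fold changes were 1.49 with clone E (SE 0.38, adjusted p = 0.0031), 1.16 with clone N (SE 0.38, adjusted p = 0.015) and 1.10 with KPC1 (SE 0.38, adjusted p = 0.013). The clone N call was lost without clone N replicate 1 (log2 fold change 0.87, adjusted p = 0.084) or mono-culture replicate 1 (1.03, adjusted p = 0.057). Clone T gave 198, 257, 293 and 212 CPM. These were all above mono-culture, but the difference did not pass (log2 fold change 0.75, adjusted p = 0.098). A fit of only the 8 libraries compared did pass (adjusted p = 0.0051). Clone M gave 143, 271, 143 and 180 CPM, which overlapped mono-culture (log2 fold change 0.36, adjusted p = 0.53). In the order of group means, from clone K at 665 ± 375 CPM (SD, n = 4) to mono-culture at 143 ± 38.1 CPM, no group differed from its neighbour beyond their spread.

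Actg2 (ENSMUSG00000059430, chr6:83512905-83536265, minus strand) encodes gamma smooth muscle actin of the gut and bladder wall. It had 0, 1, 4 and 6 counts in the mono-culture libraries. With clone K it had 40, 17, 3 and 2 counts and with clone E 11, 2, 0 and 1, while the other co-cultures held at most 4 counts in a library. Only clone K replicates 1 and 2 and clone E replicate 1 exceeded the highest mono-culture library, and no test was made. Of the other muscle actins, skeletal Acta1 had at most 12 counts and cardiac Actc1 at most 1 count in a library. Exact sharing of sequence was searched in the annotated transcripts of GENCODE M21. Of 2120 windows of 76 bases in Acta2 transcripts, and of 1607 in Actg2 transcripts, 0 stood in a transcript of another gene, and the count was 0 for the other 8 members too.

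Tagln (ENSMUSG00000032085, chr9:45929619-45936058, minus strand) encodes transgelin, an actin-binding protein of smooth muscle. It had 30.8, 38.4, 30.5 and 48.0 CPM in mono-culture. With clone V it had 412, 241, 119 and 154 CPM and with clone K 349, 265, 171 and 62.6 CPM. All 8 libraries exceeded mono-culture, and within each clone replicate 1 was the highest. The log2 fold change was 2.64 with clone V (SE 0.47, adjusted p = 2.1e-05) and 2.52 with clone K (SE 0.47, adjusted p = 0.00025).

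Tagln was also wholly above mono-culture with clone H (87.4, 195, 105 and 116 CPM), clone N (174, 78.4, 104 and 153 CPM) and KPC1 (81.8, 142, 90.4 and 153 CPM). The log2 fold changes were 1.77 (adjusted p = 0.0018), 1.78 (adjusted p = 0.0026) and 1.66 (adjusted p = 0.0026), in that order. With clone E it had 159, 119, 58.9 and 38.6 CPM, the last within the mono-culture range. That call (log2 fold change 1.35, SE 0.45, adjusted p = 0.023) was lost without clone E replicate 1 (0.97, adjusted p = 0.13), clone E replicate 2 (1.22, adjusted p = 0.059), mono-culture replicate 1 (1.26, adjusted p = 0.067) or mono-culture replicate 3 (1.28, adjusted p = 0.061). It was also lost in an edgeR fit of only the libraries compared (adjusted p = 0.051) and with limma (adjusted p = 0.058). Clone T had 47.3, 92.8, 74.2 and 91.7 CPM and clone M 38.1, 84.8, 33.4 and 61.9 CPM. Both overlapped mono-culture, and neither passed (adjusted p = 0.055 and 0.41). Without clone T replicate 1 the clone T difference passed (log2 fold change 1.22, adjusted p = 0.039). It also passed with DESeq2 (adjusted p = 0.045), and in edgeR with a replicate block (0.043) or a fit of only the libraries compared (0.0031). RLE scaling, no scaling beyond library totals, no filter on low counts and limma left it uncalled. The gene overlaps Pcsk7 on the opposite strand, and the strand setting of the counting was not given in the sources used here.

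Cnn1 (ENSMUSG00000001349, chr9:22099216-22109630, plus strand) encodes calponin 1, which binds actin and restrains myosin. It was scarce, with 1.54, 1.49, 1.14 and 2.33 CPM in mono-culture. With clone K it had 9.34, 6.44, 4.76 and 4.0 CPM. With clone V it had 6.31, 3.51, 3.16 and 3.89 CPM. Both groups lay wholly above mono-culture, as did clone H (3.95, 3.69, 2.99 and 4.19 CPM) and clone N (4.25, 3.09, 3.76 and 5.56 CPM). The log2 fold changes were 1.89 with clone K (SE 0.28, adjusted p = 7.4e-06), 1.35 with clone V (SE 0.28, adjusted p = 9.9e-05), 1.34 with clone N (SE 0.28, adjusted p = 0.00026) and 1.17 with clone H (SE 0.28, adjusted p = 0.00066).

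Clone T, with 2.64, 1.87, 3.33 and 3.27 CPM of Cnn1, overlapped mono-culture and was called (log2 fold change 0.75, adjusted p = 0.025). Leaving out clone T replicate 3 (0.66, adjusted p = 0.076), clone T replicate 4 (0.67, adjusted p = 0.069), mono-culture replicate 1 (0.72, adjusted p = 0.060), mono-culture replicate 2 (0.71, adjusted p = 0.059) or mono-culture replicate 3 (0.64, adjusted p = 0.080) ended that call. The call was also lost with limma (adjusted p = 0.088). Cnn1 with clone E had 2.21 to 2.70 CPM, with clone M 1.68 to 2.69 CPM and with KPC1 2.03 to 3.88 CPM. None of these passed (adjusted p = 0.097, 0.35 and 0.054). Without mono-culture replicate 4, the highest Cnn1 library of its group, clone E passed (0.84, adjusted p = 0.039) and so did KPC1 (0.86, adjusted p = 0.017), and KPC1 also passed without KPC1 replicate 2 (0.71, adjusted p = 0.047) or KPC1 replicate 3 (0.71, adjusted p = 0.044).

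Cald1 (ENSMUSG00000029761, chr6:34598500-34775473, plus strand) encodes caldesmon, made in a long smooth muscle form and a short form of other cells. The counts do not separate these forms. It had 822, 915, 788 and 892 CPM in mono-culture. With clone K it had 1610, 1429, 1386 and 1012 CPM and with clone V 1396, 1593, 1268 and 1093 CPM. All 8 were above mono-culture, with log2 fold changes of 0.67 (SE 0.14, adjusted p = 0.00053) and 0.65 (SE 0.14, adjusted p = 0.00014). Clones N, E and H and KPC1 also lay wholly above mono-culture, between 1003 and 1515 CPM. Their log2 fold changes were 0.57 (adjusted p = 0.0010), 0.52 (adjusted p = 0.0035), 0.43 (adjusted p = 0.0079) and 0.45 (adjusted p = 0.0051). Clone M, at 894 to 1078 CPM, did not pass (log2 fold change 0.18, adjusted p = 0.36).

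With clone T, Cald1 had 1157, 1174, 1146 and 916 CPM and was called (log2 fold change 0.36, adjusted p = 0.025). The 4 libraries stood above mono-culture, the last only just above its highest library of 915 CPM. The call was lost without clone T replicate 1 (0.34, adjusted p = 0.061), clone T replicate 2 (0.33, adjusted p = 0.064), clone T replicate 3 (0.35, adjusted p = 0.055), mono-culture replicate 1 (0.34, adjusted p = 0.064) or mono-culture replicate 3 (0.34, adjusted p = 0.063), and also without scaling beyond library totals (0.29, adjusted p = 0.057). It was lost with limma too (adjusted p = 0.058). Cald1 was thus called higher with 7 of 8 lines, and its fold changes were smaller than those of Acta2 and Tagln. Antisense genes lie across it, and strand use in counting was not given.

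The tropomyosins are coiled coils that lie along the actin filament, and forms from Tpm1 and Tpm2 are found in smooth and striated muscle. GENCODE M21 holds 21 transcripts of Tpm1 and 6 of Tpm2, and the counts do not separate these. Tpm1 (ENSMUSG00000032366, chr9:67022590-67049406, minus strand) had 574, 662, 599 and 652 CPM in mono-culture. With clone K it had 984, 850, 928 and 660 CPM, the only line with a call (log2 fold change 0.46, SE 0.13, adjusted p = 0.014). That call was lost without clone K replicate 1 (0.39, adjusted p = 0.066), clone K replicate 3 (0.42, adjusted p = 0.054) or mono-culture replicate 1 (0.42, adjusted p = 0.058). With the other 7 lines Tpm1 had between 549 and 987 CPM in a library, and the log2 fold change lay between 0.013 with clone M and 0.30 with clone H. The sign of the differences with clones M and T turned without scaling beyond library totals. Clone H was wholly above mono-culture, at 746 to 791 CPM, but did not pass (adjusted p = 0.055).

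Tpm2 (ENSMUSG00000028464, chr4:43514711-43523765, minus strand) was called lower with 4 lines and higher with clone K. It had 266, 271, 282 and 286 CPM in mono-culture, a narrow range. With KPC1 it had 157, 165, 182 and 198 CPM and with clone T 186, 164, 184 and 209 CPM. All 8 libraries were below mono-culture, with log2 fold changes of -0.65 (SE 0.12, adjusted p = 2.5e-05) and -0.57 (SE 0.12, adjusted p = 0.00019). Clone H (224, 226, 178 and 232 CPM) and clone V (242, 229, 196 and 204 CPM) were wholly below as well. The log2 fold changes were -0.36 (adjusted p = 0.011) and -0.34 (adjusted p = 0.014). The clone H call was lost without clone H replicate 3 (-0.28, adjusted p = 0.070), and the clone V call without clone V replicate 3 (-0.29, adjusted p = 0.062).

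With clone K, Tpm2 had 403, 412, 349 and 274 CPM. Of these, 3 lay above mono-culture, and the log2 fold change was 0.38 (SE 0.12, adjusted p = 0.022). That call was lost without clone K replicate 1 (0.32, adjusted p = 0.086), clone K replicate 2 (0.31, adjusted p = 0.098), mono-culture replicate 1 (0.36, adjusted p = 0.069) or mono-culture replicate 2 (0.37, adjusted p = 0.055), and without scaling beyond library totals (0.32, adjusted p = 0.060). It was lost with limma as well (adjusted p = 0.075). Clones E, M and N had 204 to 275 CPM and did not pass (adjusted p = 0.17, 0.22 and 0.054). Clone N passed without clone N replicate 1 (-0.42, adjusted p = 0.0093). It also passed in edgeR without scaling beyond library totals (adjusted p = 0.023), with a replicate block (0.03) and in a fit of only the libraries compared (0.034). With limma the adjusted p was 0.02. RLE scaling, no filter on low counts and DESeq2 left clone N uncalled. For the mean of the 7 clones Tpm2 was at -0.23 (log2 scale, SE 0.088, adjusted p = 0.030), which was lost without mono-culture replicate 2 (-0.24, adjusted p = 0.061), replicate 3 (-0.21, adjusted p = 0.10) or replicate 4 (-0.22, adjusted p = 0.095).

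Myl9 (ENSMUSG00000067818, chr2:156775420-156781658, plus strand) encodes the regulatory light chain of smooth muscle and non-muscle myosin, the substrate of myosin light chain kinase. It had 87.6, 96.7, 79.0 and 101 CPM in mono-culture. With clone K it had 282, 282, 180 and 121 CPM. With KPC1 it had 25.3, 25.7, 37.3 and 41.3 CPM. Clone K lay wholly above and KPC1 wholly below mono-culture. The log2 fold changes were 1.25 (SE 0.30, adjusted p = 0.0033) and -1.49 (SE 0.31, adjusted p = 0.00013).

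Clone T, with 35.8, 40.1, 42.8 and 52.9 CPM of Myl9, clone V, with 58.6, 64.7, 32.6 and 61.9 CPM, and clone H, with 56.1, 73.9, 44.3 and 54.7 CPM, were wholly below mono-culture too. The log2 fold change was -1.09 with clone T (SE 0.30, adjusted p = 0.0036) and -0.74 with clone V (SE 0.30, adjusted p = 0.034). With clone H it was -0.67 and did not pass (adjusted p = 0.059), although it did without clone H replicate 2 (-0.82, adjusted p = 0.039) and with DESeq2 (-0.68, adjusted p = 0.044). It also passed in edgeR without scaling beyond library totals (adjusted p = 0.033), with a replicate block (0.031) and in a fit of only the libraries compared (0.0018). With limma the adjusted p was 0.029. RLE scaling and no filter on low counts left it uncalled. The clone V call was lost without clone V replicate 1 (-0.77, adjusted p = 0.054), clone V replicate 3 (-0.56, adjusted p = 0.14), mono-culture replicate 1 (-0.76, adjusted p = 0.051), mono-culture replicate 2 (-0.71, adjusted p = 0.066) or mono-culture replicate 4 (-0.68, adjusted p = 0.080), and without the filter on low counts (-0.72, adjusted p = 0.077).

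Clone E had 124, 122, 57.7 and 55.1 CPM of Myl9, with 2 libraries above and 2 below the mono-culture range. Clone M had 97.1, 134, 53.0 and 88.4 CPM and clone N 127, 73.1, 61.8 and 68.2 CPM. Neither clone E, clone M nor clone N passed (adjusted p = 0.97, 0.96 and 0.74). In the order of Myl9 group means, clone K (216 ± 79.5 CPM, SD, n = 4) differed from its neighbour clone M (93.1 ± 33.3 CPM), and no later neighbour pair down to KPC1 (32.4 ± 8.18 CPM) differed beyond its spread. The same held for Tpm2 and Lmod1, where clone K led and mono-culture came next.

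Myh11 (ENSMUSG00000018830, chr16:14194535-14291372, minus strand) encodes the heavy chain of smooth muscle myosin. Its counts were 7, 2, 8 and 5 in mono-culture. They were 34, 35, 32 and 15 with clone M and 20, 45, 29 and 20 with clone E. Both groups were wholly above mono-culture in CPM. The log2 fold changes were 2.48 (SE 0.54, adjusted p = 0.00095) and 2.25 (SE 0.54, adjusted p = 0.0017), from few counts. Clone N (15, 36, 26 and 16 counts) and clone T (18, 12, 22 and 19 counts) were also wholly above. Their log2 fold changes were 2.04 (adjusted p = 0.0034) and 1.60 (adjusted p = 0.016). The clone T call was lost without mono-culture replicate 2 (1.32, adjusted p = 0.063) or replicate 4 (1.46, adjusted p = 0.052).

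Clone K had 21, 36, 22 and 16 counts of Myh11 and was called (log2 fold change 1.99, adjusted p = 0.0088), but not without clone K replicate 2 (1.57, adjusted p = 0.056). KPC1 had 20, 11, 23 and 10 counts and was called (1.52, adjusted p = 0.019), but not without KPC1 replicate 3 (1.24, adjusted p = 0.074), mono-culture replicate 2 (1.23, adjusted p = 0.072) or mono-culture replicate 4 (1.37, adjusted p = 0.058). Clone H (5, 13, 8 and 8 counts) and clone V (0, 9, 15 and 5 counts) overlapped mono-culture and did not pass (adjusted p = 0.56 and 0.72). Between lines, Myh11 was lower with clone V than with clones E, K, M and N, and lower with clone H than with the same 4 clones (8 of 28 line pairs in all). Of all genes, 42.2% to 57.9% differed between clone V and these 4 clones, and 31.6% to 51.1% between clone H and them. The difference from clone M was -2.20 for clone V (log2 scale, adjusted p = 0.00057). With clone M, Myh11 was the only member called, and Acta2 and Tagln were not.

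Lmod1 (ENSMUSG00000048096, chr1:135324807-135368065, plus strand) encodes leiomodin 1, which starts actin filaments in smooth muscle. It had 8.75, 8.97, 9.13 and 9.05 CPM in mono-culture. With clone K it had 15.3, 23.5, 18 and 16.4 CPM. With KPC1 it had 2.74, 3.50, 4.0 and 4.90 CPM. Clone K was wholly above and KPC1 wholly below mono-culture, with log2 fold changes of 1.03 (SE 0.22, adjusted p = 0.0011) and -1.24 (SE 0.24, adjusted p = 3.7e-05). Clone V had 3.05, 4.67, 4.52 and 3.95 CPM (log2 fold change -1.15, SE 0.23, adjusted p = 9.5e-05). Clone H had 6.29, 6.16, 4.13 and 4.84 CPM (-0.75, adjusted p = 0.0066). Clone T had 4.72, 4.12, 6.34 and 7.31 CPM (-0.67, adjusted p = 0.015), and that call was lost without clone T replicate 2 (-0.55, adjusted p = 0.067). All 3 lay wholly below mono-culture. Clones E, M and N overlapped mono-culture or spread around it, at 5.27 to 12.3 CPM, and did not pass (adjusted p = 0.63, 0.90 and 0.59).

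The lines with lower Myl9, Tpm2 or Lmod1 were also those with a lower summed level of fibroblast markers, although single markers went both ways. Over the 9 fibroblast markers the sum was 21239 to 23092 CPM in mono-culture. It was 15104 to 19176 CPM with clone H, 16532 to 18288 CPM with clone T, 10884 to 21582 CPM with clone V and 12754 to 16408 CPM with KPC1. Of the 9 fibroblast markers, 5 were called lower and 2 higher with clone H, where 26.4% of all genes were called lower. The counts were 6 lower and 3 higher with clone T (24.7% lower), 5 and 1 with clone V (28.9% lower) and 6 and 3 with KPC1 (28.5% lower). With each of the other 4 clones 0 of these markers were lower by the same test. Fewer of all genes were lower there too, 15.5% with clone E, 8.69% with clone K, 10.8% with clone M and 19.2% with clone N. The part of this shift in the values of Myl9, Tpm2 and Lmod1 was not tested. Acta2 and Tagln were called higher with clones H and V and with KPC1 in the same libraries.

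Members thus parted within single libraries. The ratio of Acta2 to Myl9 in CPM was 1.25 to 1.93 in the mono-culture libraries. It was 8.49 to 14.3 with clone V, 7.79 to 10.8 with KPC1 and 6.44 to 10.1 with clone H. It was 4.01 to 6.85 with clone T, 3.50 to 5.55 with clone E and 2.79 to 4.82 with clone N. The ranges of these 6 lines do not overlap that of mono-culture, while clone K (1.57 to 3.90) and clone M (1.47 to 2.69) do. Over the 36 libraries Pearson's r of log2 CPM was 0.93 between Acta2 and Tagln, 0.94 between Myl9 and Tpm2 and 0.85 between Myl9 and Lmod1. Between Acta2 and Myl9 it was 0.30. For that pair r was 0.11 over the 9 group means and 0.79 over deviations of libraries from their group mean. Libraries of a group share a line and a culture layout, so these are descriptions.

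**Figure D3:**
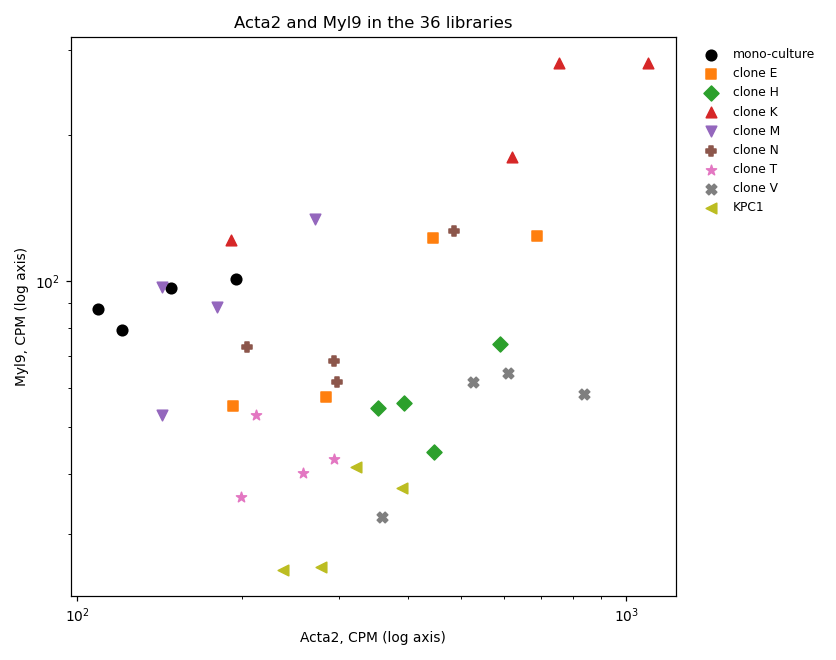
Acta2 against Myl9 in the 36 libraries, both in TMM-scaled CPM on log axes, 1 point per library and 1 symbol per group. Clone V, KPC1 and clone H lie to the lower right of mono-culture, with ratios of Acta2 to Myl9 of at least 6.44. Of clone K, 3 libraries lie to the upper right, and replicate 4 lies within the mono-culture range of Acta2.

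The next comparison asked whether the members differed among the 7 clones. The F-test over the clones called 8 of 9 members, against 67.5% of all genes. The edgeR adjusted p was 1.3e-08 for Lmod1, 5.8e-07 for Myl9, 1.0e-06 for Tpm2, 0.00011 for Cnn1, 0.00067 for Acta2, 0.0012 for Tagln, 0.0014 for Myh11 and 0.022 for Cald1. Tpm1 did not pass (adjusted p = 0.052). The Cald1 call was lost without clone M replicate 1 (adjusted p = 0.060) or clone M replicate 3 (adjusted p = 0.065). Tpm1 passed without any 1 of 7 clone libraries, most clearly without clone K replicate 4 (adjusted p = 0.013).

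Of the 28 pairs of lines, 15 differed in Lmod1, 14 in Myl9, 11 in Tpm2, 10 in Cnn1, 8 in Acta2, 8 in Myh11, 7 in Tagln, 3 in Cald1 and 2 in Tpm1. The share of all genes that differed ran from 0.388% (clones H and V) to 57.9% (clones M and V) over these pairs. These counts are therefore not read as particular to the members. Clone K was higher than each of the other 7 lines in Myl9, Tpm2 and Lmod1. In Lmod1 the difference on the log2 scale ran from -1.08 for clone M (adjusted p = 0.0063) to -2.27 for KPC1 (adjusted p = 5.4e-09), each against clone K. In Acta2, clone V exceeded clone M by 1.66 (adjusted p = 0.00044) and clone T by 1.28 (adjusted p = 0.014). No member differed between clones H and V, where 0.388% of all genes differed, or between clones E and N, where 1.27% differed. The same held for clones H and T (7.58%), and for KPC1 against clone H (2.89%), clone T (5.36%) and clone V (10.7%).

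Clones K and M were picked out from these pairs after the values were seen. Of all genes tested, 2.24% (323 genes) differed between them, and 7 of the 9 members did, all lower with clone M. The log2 differences of clone M from clone K were -1.96 for Tagln (adjusted p = 0.016), -1.85 for Acta2 (adjusted p = 0.0064), -1.50 for Cnn1 (adjusted p = 0.0019) and -1.22 for Myl9 (adjusted p = 0.023). They were -1.08 for Lmod1 (adjusted p = 0.0063), -0.59 for Tpm2 (adjusted p = 0.0053) and -0.49 for Cald1 (adjusted p = 0.046). The count fell to 4 without clone K replicate 1 (1.22% of all genes), clone K replicate 2 (1.12%), clone M replicate 1 (1.37%) or clone M replicate 3 (0.854%), and in each of these fits the 4 were Acta2, Cnn1, Tpm2 and Lmod1. It was 8 without clone K replicate 4 (3.67% of all genes) and 8 with the replicate number as a block (4.99%). A fit of the 8 libraries of these clones called 2, Cnn1 and Lmod1, where 1.5% of all genes differed. Epithelial markers summed to 50.2, 18.3, 231 and 302 CPM in the clone K libraries, against 1097, 755, 619 and 190 CPM of Acta2. They summed to 141, 52.4, 522 and 280 CPM in the clone M libraries, against 143, 271, 143 and 180 CPM of Acta2. In both clones the libraries with more epithelial marker RNA tended to hold less Acta2.

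The last comparison set KPC1 against the mean of the 7 clones. Myl9 (log2 difference -1.29, SE 0.25, adjusted p = 0.00019), Tpm2 (-0.42, SE 0.094, adjusted p = 0.00062) and Lmod1 (-0.97, SE 0.19, adjusted p = 0.00018) were lower with KPC1, 3 of 9 members where 41.1% of all genes were called. Acta2 (-0.28, SE 0.29, adjusted p = 0.47) and Tagln (-0.0086, SE 0.33, adjusted p = 0.99) did not pass. Cnn1 was -0.44 (adjusted p = 0.091), and passed without KPC1 replicate 4 (-0.72, adjusted p = 0.016). Against single clones, KPC1 differed in 0 members from clone H (2.89% of all genes), clone T (5.36%) and clone V (10.7%). The count was 3 against clone E (40.2%), 6 against clone K (56.1%), 4 against clone M (55.5%) and 4 against clone N (35.3%).

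Other genes of the contractile apparatus, a list of 22 of which 21 were tested, were mixed. For the mean of the 7 clones 9 of 21 were called, 6 higher and 3 lower, where 49.2% of all genes were called, and the median over the list was 0.20 on the log2 scale. Itga8, an integrin subunit of contractile cells, stood at 0.94 (SE 0.30, adjusted p = 0.010), and Smtn, smoothelin, 0.59 (SE 0.11, adjusted p = 7.7e-05). Pgm5, a protein of adherens junctions in muscle, was lowest at -1.23 (SE 0.28, adjusted p = 0.00045), followed by the LIM protein gene Csrp1 at -0.64 (SE 0.061, adjusted p = 5.3e-10). Smtn was highest with KPC1 (201 ± 34.1 CPM, SD, n = 4) against 68.6 ± 2.79 CPM in mono-culture, and was 64.8 ± 6.91 CPM with clone K. Smtn stood high with lines in which Myl9 was low.

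Mylk, myosin light chain kinase, whose substrate is the product of Myl9, was at 0.58 for the mean of the clones (SE 0.20, adjusted p = 0.020). It was called higher with clones E (1.05), K (1.01), T (0.81), M (0.71) and N (0.69), on the log2 scale. With clone H (0.13), clone V (-0.37) and KPC1 (-0.088) it did not pass. With clone K, 9 genes of the list were called higher (10.4% of all genes) and 0 lower (8.69%). With KPC1 3 were higher (30.5% of all genes) and 6 lower (28.5%), together 9 of 21 where 59.0% of all genes were called. On library totals alone, with no TMM factor, 5 were higher and 4 lower for the mean of the clones. The share of all genes in that setting is not given here.

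**Figure D4:**
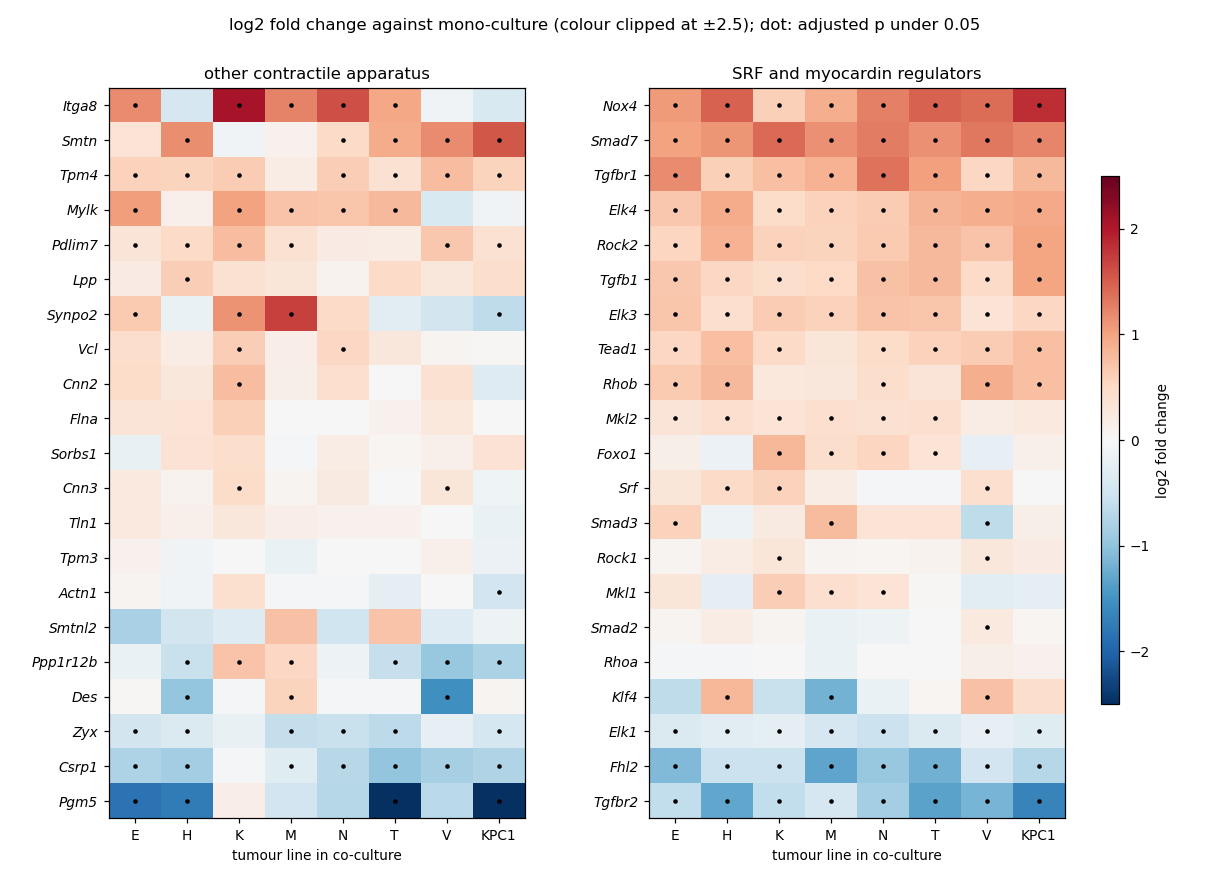
log2 fold change against mono-culture (colour, clipped at 2.5 in either direction) of the tested genes of the contractile list (left) and of the SRF and myocardin list (right), 1 column per tumour line; a dot marks an edgeR adjusted p under 0.05. Pgm5 is bluest with clone T and KPC1, and Smad7 and Nox4 are red with each of the 8 lines.

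The list of SRF and myocardin regulators and of the TGF-beta pathway upstream of them held 22 genes, of which 21 were tested. For the mean of the clones 15 were called, where 49.2% of all genes were. Of these 12 were higher (24.3% of all genes) and 3 lower (24.9%), with a median of 0.28. Smad7, an inhibitor induced by TGF-beta signalling, was highest at 1.20 (SE 0.14, adjusted p = 3.3e-08), then Nox4, an oxidase that TGF-beta induces in fibroblasts, at 1.17 (SE 0.17, adjusted p = 8.3e-07). The receptor gene Tgfbr2 was lowest at -0.90 (SE 0.11, adjusted p = 3.5e-08), with the cofactor gene Fhl2 at -0.88 (SE 0.10, adjusted p = 2.1e-08). Srf itself was at 0.28 on that scale (SE 0.11, adjusted p = 0.044). It was called with clones K (0.58), H (0.48) and V (0.42), and those are 3 of the 6 lines with a call in Acta2. The myocardin-related factor Mkl1 had 0.17 (adjusted p = 0.12) and Mkl2 0.35 (adjusted p = 0.0010). Mkl1 was called higher with clones K (0.61), M (0.42) and N (0.34). Myocd, myocardin, was at 0 counts in mono-culture, reached at most 10 in a co-culture library and was not tested.

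Genes of the cytoskeleton outside muscle were examined for comparison. Of 15 genes of non-muscle actin and myosin 8 were called for the mean of the clones, 7 higher and 1 lower, against 49.2% of all genes, with a median of 0.25. Tmsb4x, thymosin beta 4, which holds actin monomers, was highest at 1.19 (SE 0.15, adjusted p = 9.6e-08), then Actr3 of the branching complex at 0.38 (SE 0.086, adjusted p = 0.00049). Myl12b, a regulatory light chain of non-muscle myosin, was lower at -0.56 (SE 0.11, adjusted p = 5.0e-05). The cytoplasmic actins Actb (0.20, adjusted p = 0.13) and Actg1 (0.29, adjusted p = 0.13) did not pass.

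Markers of smooth muscle cells and pericytes summed to 108 to 120 CPM in mono-culture and to 131 to 633 CPM in the co-cultures. Of the 5 tested, 3 were called for the mean of the clones, where 49.2% of all genes were. Notch3 (log2 fold change 1.53, SE 0.23, adjusted p = 2.6e-06) and Mcam (2.26, SE 0.37, adjusted p = 9.5e-06) were higher (24.3% of all genes). The pericyte marker Rgs5 was lower (-1.85, SE 0.32, adjusted p = 1.5e-05), where 24.9% of all genes were. Des, desmin, did not pass (-0.29, adjusted p = 0.072), nor did Cspg4, and the median of the 5 was -0.29. Kcnj8, Abcc9 and Myocd stayed under a mean of 1 CPM in each group. The sum was highest with clone E, at 361 to 633 CPM, and not with clones K or V (151 to 304 and 131 to 264 CPM), where Acta2 stood highest.

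Among all other tested genes with a mean of at least 2 CPM, the 5 most like the mean of the 9 members over the 36 libraries were Pdlim5 (Pearson's r = 0.89), Mtap (0.87), Cap2 (0.83), Slc7a2 (0.83) and Pcdha2 (0.82). For Acta2 alone the 3 nearest were Tpm4 (0.90), a non-muscle tropomyosin gene, Myl12a (0.85), a regulatory light chain gene, and Gm7809 (0.83). These likenesses rest on libraries that share lines and are descriptions.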

How the data were processed

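RNA sequencing of 36 fibroblast libraries was analysed, 4 in each of 9 groups taken from the sample labels. The authors deposited a table of whole-number counts per gene, and their processing notes name STAR, featureCounts, edgeR and build mm10, without versions. The authors also deposited RPKM values per gene, scaled by library size and gene length, which were used for levels between genes and for 1 alternative test. Annotation and strand setting are not given in the sources used here.

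Counts were filtered (filterByExpr, minimum count 10), scaled by TMM and fitted over all 36 libraries with the robust quasi-likelihood test of edgeR 4.0.16 in R 4.3.3, with Benjamini-Hochberg adjustment over 14439 genes and a threshold of 0.05. Standard errors were derived from the fold change and its F statistic. Comparisons were each line against mono-culture, the mean of 7 clones against mono-culture, an F-test among the clones, KPC1 against the clones, and all pairs of groups. The fit was tested on simulated counts.

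All 10 members are named. From each further list, at most 2 called genes with the highest and 2 with the lowest fold change for the mean of the clones are named, and Srf, Mkl1, Mkl2, Myocd and Mylk always. The 5 genes most like the members' mean and the 3 most like Acta2 are named by Pearson's r. Genes chosen after their values were seen are the other actins, Des, Cspg4, Kcnj8, Abcc9 and the epithelial markers named for their level. Members and lists were chosen with earlier results of these data known.

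Alternatives were RLE scaling, no scaling beyond library totals, no filter on low counts, a replicate block, DESeq2 1.42.0, limma 3.58.1 on log2(RPKM + 1) of genes with at least 0.5 RPKM in 4 libraries, a fit of only the libraries compared, and leaving out each library. No library repeated another of its group, as the chi-square of their counts, divided by its degrees of freedom, was at least 5.84 in each of 54 pairs. Positions are from GENCODE M21 on GRCm38. Counting error at these depths is large for Actg2 and Myh11 and also bears on Cnn1 and Lmod1.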

Additional observations from a re-analysis of the deposited data

Results flagged for a closer look

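Of 90 sets of 4 libraries (10 genes in 9 groups), 5 held a library whose gap to its nearest neighbour, as a share of the group's range, passed Dixon's 95% critical value. About 4.5 are passed by chance. The share was 0.93 for Cnn1 in KPC1 replicate 4 (3.88 CPM), 0.891 for Cald1 in clone T replicate 4 (916 CPM), 0.846 for Tpm2 in clone H replicate 3 (178 CPM), 0.836 for Tpm2 in clone N replicate 1 (275 CPM) and 0.846 for Actg2 in clone H replicate 1 (0 counts).

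Co-culture effects differed among the 7 clones for 8 members by the edgeR F-test, which 67.5% of all genes passed. The adjusted p was 1.3e-08 for Lmod1, 5.8e-07 for Myl9, 1e-06 for Tpm2, 0.00011 for Cnn1, 0.00067 for Acta2, 0.0012 for Tagln, 0.0014 for Myh11 and 0.022 for Cald1.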

How the results depend on the processing

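The other settings, among them the fit of only the libraries compared, were counted apart from single libraries left out. There 644 member values kept their direction and side of the threshold, 20 newly passed it, 8 no longer passed and 8 turned in sign. With single libraries left out the counts were 1314, 16, 42 and 32. With limma on log2(RPKM + 1) the members called were 2 with clone E (30.4% of the 14308 genes tested there), 0 with clone M (21.8%) and 3 with clone T (47.6%). Myh11 fell under the RPKM filter there and was not tested. For clone M against clone K, the fit limited to their 8 libraries called 2 members, and leaving out single libraries gave 4 to 8. This pair and its alternatives were added after the data were seen.

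The values that turned in sign were uncalled. With limma they were -0.05731 for Myl9 with clone M, -0.00999 for Tpm1 with clone M, -0.03118 for Tpm1 with clone T and 0.03848 for Tagln in KPC1 against the clones. Without scaling, Tpm1 was at -0.007828 with clone M and -0.02284 with clone T. With a replicate block, Myl9 with clone M was at -0.01772 and Tagln in KPC1 against the clones at 0.02989. Leaving out single libraries gave -0.2103 to 0.1507 for Myl9 with clone E, -0.1958 to 0.226 for Myl9, -0.04679 to 0.05396 for Tpm1 and -0.2063 to 0.08405 for Lmod1 with clone M, -0.02785 to 0.1226 for Tpm1 with clone T and -0.3684 to 0.6954 for Myh11 with clone V. For KPC1 against the clones it gave -0.1658 to 0.1205 for Tagln, -0.3294 to 0.1185 for Myh11 and -0.09296 to 0.01264 for Cald1. The cause was not tested.

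The labels do not say that a replicate number marks a shared day or batch, although library numbers in the titles run through the co-cultures in order of replicate. The mono-culture libraries are numbered after all co-cultures, and a difference in handling between mono-culture and the co-cultures was not tested. Deviations of same-numbered libraries correlated over 0.1 in 5 of 32 pairs of mono-culture with a co-culture and in 63 of 112 pairs of co-cultures, every pair passed in 3 of 28 combinations of co-cultures, and 23 of 32 co-culture libraries correlated best with their own number, a hint from the data and not the design. With the replicate block the members called were 8 with KPC1 (62.5% of all genes, 59.0% without it), 8 with clone H (58.1%, 54.2% without it), 6 with clone N (44.3%, 39.0% without it) and 7 with clone T (54.0%, 49.8% without it), so the share of all genes rose too. Newly passed were Myl9 (adjusted p = 0.031) and Tpm1 (0.027) with clone H, Tpm2 with clone N (0.030), Tagln with clone T (0.043), Cnn1 with KPC1 (0.036), Tpm1 for the mean of the clones (0.041) and Tpm1 in the F-test (0.016), all by edgeR. In the 3 combinations (clones E and K, clones K and V, clone T and KPC1) the block added 1 call, Cnn1 lower with clone V than with clone K (-0.55, adjusted p = 0.042 against 0.077), and ended none. Depth limits Actg2 and Myh11, which had at most 45 counts in a library.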
